A study of Homo sapiens with 4 samples.

Results

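The genes described here are 9 chemokines that epithelial cells can make: CCL26, CCL2, CCL20, CXCL1, CXCL2, CXCL3, CXCL5, CXCL16 and CX3CL1. They were chosen by their names on the array and with earlier results of these arrays known, above all the higher CCL26 signal with miR-891b, so their values are given as descriptions with no test. All 9 were found, by 12 probes, among 43317 gene names on the array. Expression was measured with Agilent 1-colour arrays in HCT116, a colorectal cancer cell line, and A549, a lung cancer cell line. Each line was transfected with the microRNA miR-891b or with the negative control RNA NC1, in both cases with the reagent Dharmafect1, which gave a control group (NC1) and a miR-891b group of each line. Each of the 4 groups was 1 array of 1 RNA sample, and the time between transfection and harvest is not given in the sources used here. HCT116 was grown in McCoy's 5A medium and A549 in DMEM, per the labels. Per the file headers, the arrays of each line shared a slide, so the line, its medium and its slide cannot be told apart. No difference below has a replicate check.

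Chemokines are small secreted proteins that guide the migration of leukocytes. They are sorted into the CC, CXC and CX3C families by the spacing of cysteines near the start of the mature protein, and they act through receptors coupled to G proteins. Lung and gut epithelia release them during infection and inflammation, often after activation of the transcription factor NF-kB, and tumour cells of both tissues can make them as well.

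A microRNA acts mainly through its seed, the stretch at bases 2 to 8 that pairs with matching sites in transcripts, and the mature miR-891b is shown here because it is the agent compared with NC1. The sequence is that of RefSeq (GRCh38.p14, chrX:146001100-146001121, minus strand), with the seed in capitals.
miR-891b: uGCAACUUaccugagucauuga
The DNA letters that pair with this seed, AAGTTGC, were in 0 of the 12 member probes and in 229 of 58201 gene probes (0.393%). A probe samples only 60 bases of a transcript, and the rest of each transcript was not analysed here.

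The probes below are shown because they bear on what the CCL26, CXCL1 and CXCL2 signals can stand for. The positions are on hg19, as the scanner files give them. The CCL26 probe covers 60 bases of RNA but spans 2159 bases of the genome (chr7:75399061-75401219, minus strand), so it joins sequence from separate exons. The capitals in the other probes (chr4:74735646-74735705, plus strand, for CXCL1, and chr4:74964342-74964401, minus strand, for CXCL2) mark the 37 bases over which they line up, with 32 matching.
CCL26 probe: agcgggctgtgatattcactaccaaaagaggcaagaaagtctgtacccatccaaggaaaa
CXCL1 probe 2: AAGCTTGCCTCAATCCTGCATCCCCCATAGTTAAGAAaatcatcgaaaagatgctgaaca
CXCL2 probe 2: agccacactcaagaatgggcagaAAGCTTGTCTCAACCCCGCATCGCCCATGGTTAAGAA
The array design lists CXCL2 probe 2 against transcripts of both CXCL2 and CXCL3, so its signal can hold RNA of either gene. CXCL1 probe 1, CXCL2 probe 1 and the CXCL3 probe carry no such double listing.

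CCL26, also called eotaxin-3, attracts eosinophils through the receptor CCR3. Its processed signal, an intensity on a linear scale, was 6.61 with an error of 1.28 on HCT116 NC1. It was 43.2 with an error of 4.55 on HCT116 miR-891b. On A549 NC1 it was 54.0 with an error of 5.51, and on A549 miR-891b it was 466 with an error of 46.6. These errors are the scanner software's own estimates for the single CCL26 spot and hold no spread between cultures. CCL26 was therefore dimmest on HCT116 NC1, brightest on A549 miR-891b, and brighter with miR-891b than with NC1 in each line.

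Levels are given below as the log2 signal minus the array's 75th percentile, and changes as the miR-891b level minus the NC1 level. The CCL26 level was -3.05 on HCT116 NC1 and -0.40 on HCT116 miR-891b, a change of 2.65 (6.30-fold). In A549 it was -0.47 with NC1 and 2.65 with miR-891b, so that it differed by 3.12 (8.68-fold). The level on HCT116 miR-891b thus came close to that of A549 NC1. Among the genes well above background on both arrays of a line, CCL26 had the 10th highest change of 19105 in HCT116 and the 15th highest of 21336 in A549. Each array was also searched for areas of stray signal, around a spot within 10 rows and columns. An area counted as such where at least 10% of the gene spots that no other array showed above background were so marked. Around the only CCL26 spot that share was 5.88% on HCT116 miR-891b and 7.37% on A549 miR-891b, below that limit.

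The HCT116 value starts close to the detection limit. The lowest signal marked as well above background on HCT116 NC1 was 4.69, and only 976 of the 26753 probes above background there (3.65%) were dimmer than CCL26. On A549 NC1, 44.6% of such probes were dimmer. For a comparison, 1020 other genes above background on both HCT116 arrays had an NC1 level within 0.5 of that of CCL26. The lowest level above background on HCT116 miR-891b was -3.14. Genes of this NC1 level that fell below detection there are left out, so the set leans towards higher changes. Its median change was 0.32 with an SD of 0.51, against an SD of 0.38 over all measured genes. At least 2-fold higher were 8.43% of the 1020 genes. Of these, 5 differed by at least as much as CCL26. In A549, 2394 other genes lay as near to its NC1 level, 5.30% of them were at least 2-fold higher, and 3 differed by at least as much. With normexp background correction (with an offset of 50 added to every signal) followed by quantile normalization, the HCT116 change was 0.78 and no longer reached 2-fold, while the A549 change was 2.31. Quantile normalization alone gave 2.54 and 3.24.

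**Figure D1:**
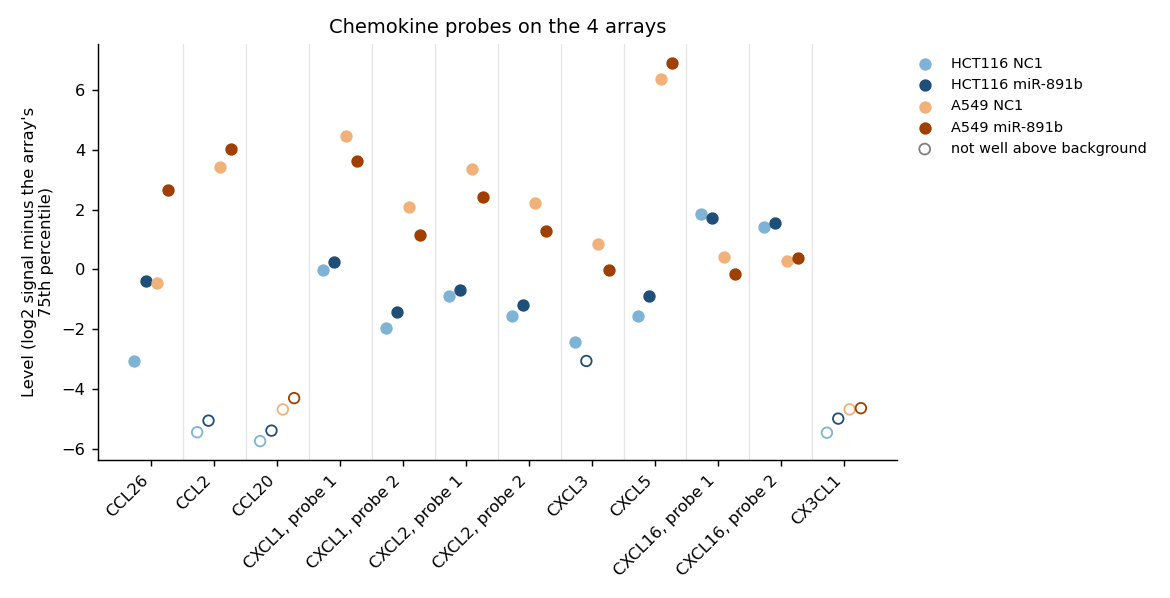
Level of each chemokine probe on the 4 arrays, as the log2 signal minus the array's 75th percentile (vertical axis), with 1 point per array and open points where the probe was not well above background. CCL26 is higher with miR-891b in both lines, CCL2 is above background in A549 alone, and CCL20 and CX3CL1 are open on every array; heights can be compared within a probe, not between probes.

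CXCL1, CXCL2 and CXCL3 are closely related attractants of neutrophils that act through CXCR2. They were much higher in A549 than in HCT116, and in A549 they were lower with miR-891b by similar amounts, short of 2-fold. The level of CXCL1 probe 1 was -0.018 on HCT116 NC1 and 0.26 on HCT116 miR-891b. In A549 it was 4.47 with the control and 3.64 with miR-891b, so that the change was 0.28 in HCT116 and -0.83 in A549. CXCL1 probe 2, which lies elsewhere in the transcript, gave 0.52 and -0.94, the same directions.

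CXCL2 followed the same order of arrays. Its probe 1 had an HCT116 level of -0.88 with NC1 and -0.70 with miR-891b, and an A549 level of 3.37 with NC1 and 2.43 with miR-891b. Its change was 0.17 in HCT116 and -0.93 in A549, and probe 2 gave 0.36 and -0.96. Both A549 arrays lay above both HCT116 arrays for each CXCL1 and CXCL2 probe. By distance over the 4 arrays, after subtracting each gene's mean, CXCL1 and CXCL2 were each other's second nearest gene among 13298 genes above background on all 4 arrays and named by a symbol. GRAMD1B was nearest to both. The third nearest was ALDH3B1 for CXCL1 and EPS8L3 for CXCL2.

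CXCL3 was at the edge of detection in HCT116. Its level was -2.43 on HCT116 NC1 and -3.06, not well above background, on HCT116 miR-891b, 1.55-fold lower. This fold is the observed ratio, not a lower bound. The HCT116 change was -0.81 after quantile normalization and -0.068 after normexp with quantile normalization. Where a fold is given as "at least", the brighter level is set against the higher of 2 values. These are the dim probe's own level and the lowest level above background on that array. On the A549 arrays CXCL3 was above background, at 0.85 for the control and -0.029 for miR-891b, and its change was -0.88. Its HCT116 direction thus differed from that of CXCL1 and CXCL2, at signals of 10.2 and 6.81 with errors of 1.45 and 1.53. Against HCT116 NC1, the A549 NC1 level was 22.5-fold higher for CXCL1 probe 1, 19.0-fold for CXCL2 probe 1 and 9.70-fold for CXCL3.

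CXCL5, another ligand of CXCR2, did not share the A549 direction of CXCL1, CXCL2 and CXCL3. Its HCT116 level was -1.54 with NC1 and -0.91 with miR-891b, and its A549 level was 6.35 with NC1 and 6.90 with miR-891b. It was higher with miR-891b in both lines, by 0.64 in HCT116 and 0.55 in A549. Apart from CCL26 it was the only member above background on all 4 arrays with a positive change of this size in each line. The A549 NC1 level was 239-fold that of HCT116 NC1. In the order of A549 NC1 signals its probe was brighter than 96.5% of the probes above background. The genes nearest to it over the 4 arrays were SLC16A4, AMIGO2 and HGD, at distances of 0.69, 0.93 and 0.96, against 0.27 between CXCL1 and CXCL2.

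**Figure D2:**
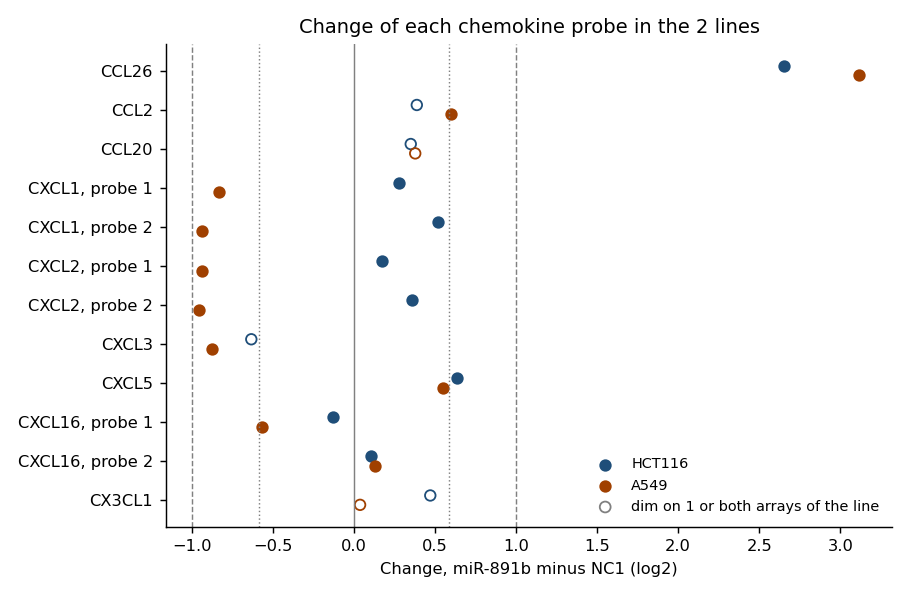
Change with miR-891b (miR-891b minus NC1, log2, horizontal axis) of each of the 12 chemokine probes in HCT116 and A549, with open points where the probe was dim on 1 or both arrays of the line, dashed lines at 2-fold and dotted lines at 1.5-fold. CCL26 lies past 2-fold in both lines, and the 5 probes of CXCL1, CXCL2 and CXCL3 lie between -0.83 and -0.96 in A549.

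The genes for CXCL1, CXCL2, CXCL3 and CXCL5 lie in a cluster on chromosome 4, and their promoters are shown because the first 3 had like changes in A549 while CXCL5 differed. Each stretch is the 120 bases before the start site in RefSeq, GRCh38.p14, written in the direction of the gene. Capitals mark matches to a 10-base pattern used for NF-kB sites, GGGA followed by 4 bases of any kind and CC, on either strand, where matches on the 2 strands overlap.
CXCL1 (chr4:73869273-73869392, plus strand): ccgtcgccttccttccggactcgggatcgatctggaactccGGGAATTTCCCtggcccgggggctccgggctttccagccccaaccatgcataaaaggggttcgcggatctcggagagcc
CXCL2 (chr4:74099196-74099315, minus strand): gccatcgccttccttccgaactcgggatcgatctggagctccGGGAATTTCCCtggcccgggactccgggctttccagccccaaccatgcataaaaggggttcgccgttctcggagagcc
CXCL3 (chr4:74038690-74038809, minus strand): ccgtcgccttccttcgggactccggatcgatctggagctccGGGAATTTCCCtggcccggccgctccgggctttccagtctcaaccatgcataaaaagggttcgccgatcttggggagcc
CXCL5 (chr4:73998678-73998797, minus strand): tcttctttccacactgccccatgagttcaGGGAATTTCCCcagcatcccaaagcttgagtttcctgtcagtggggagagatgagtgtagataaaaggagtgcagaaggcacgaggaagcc
CXCL1 and CXCL2 matched at 93.4% of aligned positions, CXCL1 and CXCL3 at 90.8%, and CXCL2 and CXCL3 at 88.5%. CXCL5 matched the other genes at 52.9% to 54.0%. The capitals spell the same letters in all 4 genes. Counted from the start site, the forward match begins at -79 in CXCL1 and CXCL3, at -78 in CXCL2 and at -91 in CXCL5. Over the 250 bases before the start site, the pattern was found in 22.6% of 35116 RefSeq promoters, and the letters GGGAATTTCC on either strand in 50 of them (0.142%). The CCL20 promoter held 3 matches to the pattern and that of CCL26 none. These are matches of letters, not measured sites.

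CCL2 attracts monocytes through CCR2 and was the only member printed at 10 spots per array. In A549 its signal was 802 ± 27.7 with NC1 and 1208 ± 40.1 with miR-891b (SD over 10 spots of 1 array each). The spots of the 2 arrays did not overlap, with a highest NC1 signal of 836 and a lowest miR-891b signal of 1131. The change was 0.60 ± 0.082 (SD over 10 spots), and this spread holds spot noise alone, not differences between cultures. Of the 10 spots, 8 lay outside areas of stray signal on every array. The highest share around any of the 10 spots was 12.8%, on A549 miR-891b. In HCT116, CCL2 was not well above background on either array, with medians of 1.21 and 1.71 over 10 and 9 spots. On the NC1 arrays CCL2 was at least 125-fold higher in A549, and on the miR-891b arrays at least 143-fold.

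CXCL16 is made as a transmembrane protein, attracts cells that carry CXCR6, and was the only member above background that was higher in HCT116 than in A549. The HCT116 level of its probe 1 was 1.86 with NC1 and 1.73 with miR-891b, and the A549 level was 0.42 and -0.14. Probe 2 had levels of 1.43 and 1.54 in HCT116 and of 0.26 and 0.40 in A549. Both probes thus placed HCT116 above A549, by 2.70-fold and 2.25-fold with NC1. They did not agree on the response to miR-891b, with -0.13 and 0.10 in HCT116 and -0.57 and 0.13 in A549. After normexp with quantile normalization the A549 change of probe 1 was -0.26 and that of probe 2 was 0.10. Probe 1 is listed for transcript NM_001100812 and probe 2 for NM_022059. The genes nearest to probe 1 over the 4 arrays were C2orf69, IER2 and SNRNP40.

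CCL20, the ligand of CCR6, and CX3CL1, a transmembrane ligand of CX3CR1, were not well above background on any array. The highest CCL20 signal was 3.75 and the highest CX3CL1 signal 2.97, both on A549 miR-891b, where the lowest signal above background was 4.86. The arrays could not show a change of either gene at these signals.

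Over the members, 5 of 9 were above background on both HCT116 arrays and 7 of 9 on both A549 arrays. In HCT116, 1 of the 5 (CCL26) was at least 2-fold higher with miR-891b, where 1.16% of all measured genes were. In A549, 1 of 7 (again CCL26) was, where 4.01% were. No measured member was at least 2-fold lower in either line, where 161 of 19105 measured genes were in HCT116 and 1188 of 21336 in A549. At 1.5-fold, a log2 change of 0.585, CCL26 and CXCL5 were higher in HCT116, against 3.91% of genes, and 0 of 5 members were lower, against 5.65%. In A549, CCL26 and CCL2 were higher, against 11.1% of genes, and CXCL1, CXCL2 and CXCL3 were lower, against 15.3%. CCL2 at 0.60 was just inside this limit, and CXCL16 at -0.57 and CXCL5 at 0.55 were just outside it. CXCL5 in A549 was past the limit after quantile normalization, at 0.89 without and 0.93 with normexp. The median change of the measured members was 0.28 in HCT116 and -0.57 in A549, beside -0.041 and -0.059 over all measured genes. The earlier results were known when the members were picked, so these counts lend no support to the choice.

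**Figure D3:**
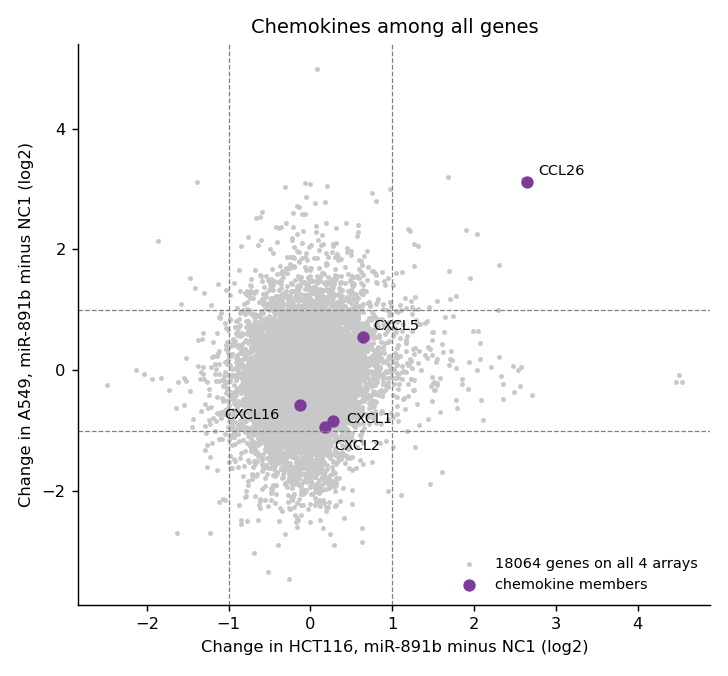
Change with miR-891b in HCT116 (horizontal axis) and in A549 (vertical axis), both in log2, for the 18064 genes measured on all 4 arrays, with the 5 such members in purple and dashed lines at 2-fold. CCL26 stands apart at 2.65 and 3.12, while CXCL1, CXCL2, CXCL5 and CXCL16 lie within the cloud of other genes.

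The genes whose pattern over the 4 arrays lay nearest to that of CCL26 were IFNE, QPRT, CEACAM1, UNKL and C1S, in that order. Their distances of 1.61 to 1.91 were far larger than that between CXCL1 and CXCL2. IFNE differed by 1.27 in HCT116 and 2.10 in A549, and its spot lay in an area of stray signal on HCT116 miR-891b, with a share of 21.1%. C1S differed by 1.26 and 1.73. QPRT differed by 0.81 and 1.57. CEACAM1 differed by 0.50 and 1.97, and by 0.49 and 1.35 when averaged over its probes above background. UNKL differed by 0.59 and 1.53. Each of the 5 differed by less than CCL26 in both lines.

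Of 34 other chemokine ligands found on the array, 4 were measured in HCT116 and 8 in A549. Of those measured, 0 were past 2-fold in either line, with medians of -0.083 and -0.021. Over all measured genes, 382 of 19105 were past 2-fold in HCT116 and 2043 of 21336 in A549. CCL28, a mucosal chemokine, was above background on HCT116 miR-891b alone, with a signal of 28.3 against 1.30 on HCT116 NC1, at least 5.81-fold higher. Its spot there lay in an area of stray signal, with a share of 16.9%. CCL24 (eotaxin-2), another CCR3 ligand and the neighbour of CCL26 on chromosome 7, differed by -0.32 in HCT116 and -0.36 in A549. CXCL8, a CXCR2 ligand of the chromosome 4 cluster, differed by -0.24 in A549 and was below detection in HCT116. CXCL6 and PPBP of that cluster were not well above background on any array. CXCL10 was above background on HCT116 NC1 alone and at least 2.49-fold lower on HCT116 miR-891b, and its spot had a stray-signal share of 13.1% on HCT116 NC1.

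Receptors of the members were mostly below detection. CCR2, CCR3, CXCR1, CXCR2, CXCR6 and CX3CR1 were not well above background on any array. CCR6, the receptor of CCL20, differed by -0.015 in HCT116 and -0.022 in A549. ACKR2, a scavenging receptor that binds CCL2, was above background on HCT116 NC1 alone. Its signal was 37.8 there and 1.52 on HCT116 miR-891b, at least 6.05-fold lower, with stray-signal shares of 2.07% and 1.05%. CXCR4, the receptor of CXCL12, was the only receptor past 2-fold among those above background on both arrays of a line, and it was lower in both lines. Its signal was 85.9 ± 6.27 on HCT116 NC1 (SD over 10 spots) and 36.8 ± 3.38 on HCT116 miR-891b (SD over 9 spots), with no overlap. It was 16.6 ± 0.82 on A549 NC1 (SD over 7 spots) and 8.12 ± 1.54 on A549 miR-891b (SD over 10 spots), again with no overlap. The changes were -1.28 and -1.04, and the highest stray-signal share around a CXCR4 spot was 16.2%, on HCT116 miR-891b. The median change of the receptor list was -0.42 in HCT116, where 5 were measured, and -0.18 in A549, where 9 were. Of all measured genes, 161 of 19105 were at least 2-fold lower in HCT116 and 1188 of 21336 in A549.

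CCL26 is known as a gene induced by IL-4 and IL-13 through STAT6. Of the 11 genes of that pathway, 10 were measured in each line, with medians of -0.22 in HCT116 and 0.013 in A549. None was past 2-fold in HCT116, where 382 of 19105 measured genes were. In A549, SOCS1, a feedback inhibitor of cytokine signalling, was higher by 1.19, and IL4R, the receptor chain shared by both cytokines, differed by -1.10. Of all measured genes, 2043 of 21336 were past 2-fold in A549. STAT6 differed by -0.25 in HCT116 and 0.089 in A549, and IL13RA1, the other receptor chain, by -0.11 and 0.42.

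NF-kB subunits, inhibitors and response genes had a median of 0.082 over 18 measured genes in HCT116 and 0.27 over 22 in A549. Over all measured genes the medians were -0.041 and -0.059. In HCT116, BIRC3, an inhibitor of apoptosis, was higher by 1.14, with its spot in an area of stray signal on HCT116 miR-891b (24.8%). In A549 the genes past 2-fold were ICAM1, an adhesion molecule for leukocytes, at 2.36, the cytokine IL1B at 1.70 and the nuclear NF-kB regulator NFKBIZ at 1.04, all higher. Of all measured genes, 1.16% were at least 2-fold higher in HCT116 and 4.01% in A549. ICAM1 and IL1B were dim on A549 NC1, with signals of 6.07 and 9.89, where the lowest signal above background was 4.82. After normexp with quantile normalization the A549 changes were 0.46 for ICAM1, 0.34 for IL1B and 0.31 for NFKBIZ. RELB, a subunit, was higher by 0.91 and the inhibitor NFKBIA by 0.38, while IL6 differed by -0.57. CXCL1, CXCL2 and CXCL3, at -0.83 to -0.93, were below 0 in A549, where 14 of 22 genes of this list and 44.4% of all measured genes had a positive change. In HCT116, CXCL1 and CXCL2, at 0.28 and 0.17, were above 0. There, 11 of 18 genes of this list and 44.5% of all measured genes had a positive change. The part of NF-kB in these values was not tested.

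Among proteases that release or trim chemokines, 6 of 11 were measured in each line and 0 were past 2-fold. Of all measured genes, 382 of 19105 were in HCT116 and 2043 of 21336 in A549. ADAM10, which sheds CXCL16 and CX3CL1 from the cell surface, differed by -0.036 in HCT116 and -0.011 in A549. ADAM17 differed by -0.28 and 0.37. DPP4, which trims several chemokines, differed by -0.74 and 0.94. After normexp with quantile normalization, none of the list genes named as past 2-fold (CXCR4, SOCS1, IL4R, BIRC3, ICAM1, IL1B and NFKBIZ) stayed past it, with values from -0.90 for IL4R in A549 to 0.78 for BIRC3 in HCT116. The A549 value of CXCR4 was then -0.16. In A549, IL4R was also short of 2-fold after quantile normalization alone, at -0.92, and CXCR4 after median scaling, at -0.98.

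**Figure D4:**
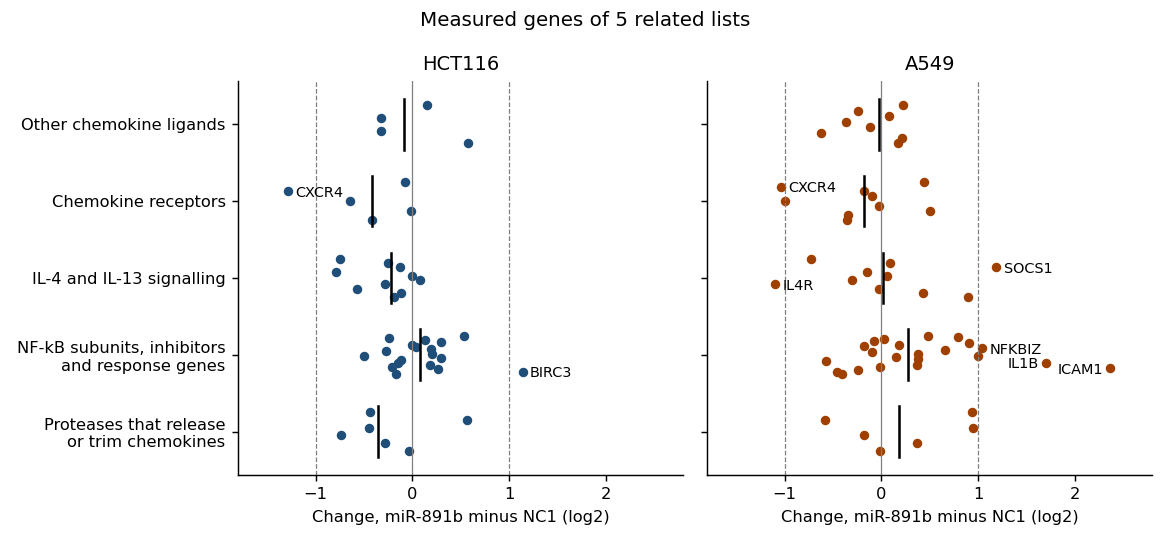
Change with miR-891b (log2, horizontal axis) of the measured genes of 5 related lists in HCT116 and A549, with 1 point per gene, black bars at the list medians and dashed lines at 2-fold. Names mark genes past 2-fold; the medians lie between -0.42 and 0.27.

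The arrays themselves had 26010 to 29258 of 58201 gene probes above background and no saturated gene spot. Areas of stray signal held 10.5% of gene spots on HCT116 miR-891b and 2.19% or less on the other arrays. Of the markers used to check the lines, CDX2 and CLDN7 were higher in HCT116 and ALDH3A1 and ALDH1A1 in A549. AKR1B10, a marker of A549, was higher with miR-891b in HCT116 by 4.47, from a signal of 11.2 to 259. ALDH1A1 was not well above background on either HCT116 array and AKR1C1 was not on HCT116 miR-891b. AKR1B10 was the 1 of 4 A549 markers measured in HCT116 that was past 2-fold, and its part in the CCL26 value was not tested. In A549, the A549 markers ALDH3A1 and KRT81 differed by -1.17 and -1.64 and the HCT116 marker CLDN3 by 1.03, with a stray-signal share of 18.7% around an ALDH3A1 spot on A549 miR-891b. Of 5 leukocyte markers found, CD14, CD79A, ITGAM and PTPRC were above background on all 4 arrays, with list medians of -0.097 in HCT116 and -0.14 in A549, and CD3E was on none. COL1A2 and DCN of fibroblasts and PECAM1 of endothelium were not well above background on any array. COL1A1 and PDGFRB of the fibroblast list were above background on all 4 arrays. They differed by -0.60 and 0.48 in HCT116 and by -0.59 and -0.041 in A549. LUM, also listed for fibroblasts, was higher with miR-891b in A549 by 2.14. The part of these markers in the A549 values was not tested. The other endothelial markers, 2 of 3 listed, were measured in each line, with list medians of -0.53 and 0.066. In RNA from whole cultures, fewer cells that make a chemokine and less of its RNA per cell cannot be told apart.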

How the data were processed

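Total RNA (100 ng per array) was labelled with Cy3 and hybridised, per the labels. Scans were quantified with Agilent Feature Extraction 11.5.1.1, per the submitters' processing notes. The deposited scanner files hold intensity values, with background subtracted within each array per the file headers and no scaling between arrays. The deposited value table holds log2 values of unstated making, with medians of -3.80, -3.60, -3.71 and -3.68, which equalled the values used here to within a median of 0.0069 per array.

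Log2 processed signals were averaged over spots without outlier marks, and each array's 75th percentile over gene probes was subtracted. The probe with the highest mean stood for a gene, and was held fixed under other scalings. A gene was measured in a line where, on each of the line's arrays, spots of that probe marked as well above background were not outnumbered by unmarked ones. With 1 array per group, a change was counted by size, at 2-fold, with no p-value. The steps were tested on simulated data. R 4.3.3 with limma 3.58.1 gave the quantile and normexp values, and Python 3.11.15 the rest.

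The members and lists were chosen with earlier results of these data known. Named genes were the members, list genes past 2-fold where measured, and the nearest genes over the 4 arrays (5 for CCL26, 3 for each other member above background on all arrays); other list genes named were picked after their values were seen. Of 43317 names, 21081 were current symbols in the RefSeq table of GRCh38.p14, among them all 9 members. Promoters were found there for 6 of the 9.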

Additional observations from a re-analysis of the deposited data

Results flagged for a closer look

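The 8 named genes given next had changes of opposite sign in the lines, each on 1 array per group, and the differences between the lines were not tested. They were taken from the members, their nearest genes and the pathway-list genes past 2-fold. Other genes in the text had opposite signs too, such as AKR1B10 (4.47 in HCT116, -0.19 in A549), CLDN3 (-0.90 and 1.03) and DPP4 (-0.74 and 0.94). The A549 change minus the HCT116 change was -1.11 for CXCL1 (0.28 in HCT116, -0.83 in A549) and -1.11 for CXCL2 (0.17 and -0.93). It was -0.98 for GRAMD1B (0.22 and -0.76), the gene nearest to both. For the genes near CXCL5 it was 0.33 for SLC16A4 (-0.23 and 0.10) and -1.004 for HGD (0.74 and -0.26). Among the list genes it was 1.31 for SOCS1 (-0.12 and 1.19), -1.60 for BIRC3 (1.14 and -0.46) and 2.58 for ICAM1 (-0.21 and 2.36). The opposite signs were lost for HGD after quantile normalization (0.58 and 0.052) and after normexp with quantile normalization (0.074 and 0.021), and for GRAMD1B after the latter (-0.026 and -0.47). They held for the other 6 genes under each alternative that gave a value in both lines.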

How the results depend on the processing

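CCL26 was higher with miR-891b in both lines under each of the 6 alternatives run for it. Its change was 2.54 in HCT116 and 3.24 in A549 after quantile normalization, and 0.78 and 2.31 after normexp with quantile normalization ("normexp" in what follows), whose offset of 50 exceeds the CCL26 signal of 6.61 on HCT116 NC1. The other alternatives could hardly move CCL26. It has 1 probe with 1 spot outside areas of stray signal, so averaging over probes and leaving out stray spots returned the same values. The deposited values nearly equalled those used here, and median scaling shifts all genes of a line alike. The count of members past 2-fold was 0 in HCT116 under normexp. At 1.5-fold it was 2 in HCT116 and 5 in A549. For all genes, 382 were past 2-fold in HCT116 and 2043 in A549. These counts were 40 and 762 under normexp, 4222 and 6013 with no filter on dim probes, 1827 and 5628 at 1.5-fold and 81 and 550 at 3-fold. Of the HCT116 genes past 2-fold, 57.9% were higher. After quantile normalization 188 were higher and 188 lower. The share higher was 49.1% without spots in areas of stray signal, 64.3% with median scaling and 67.5% under normexp. In A549 it was 41.9%, and 41.2% to 49.8% under the same alternatives. The other measured members kept their direction under the 6 alternatives, and CXCL5 in A549 ranged from 0.55 to 0.93. Of 271 alternative values of the other named genes, 192 moved by less than the median spot-level SD (0.061 in HCT116, 0.071 in A549), 79 moved by more, and none past 2-fold changed sign. The count of 192 is no measure of robustness. Median scaling shifts all genes of a line alike, by less than these SDs, and the deposited values nearly equalled those used here. Averaging over probes and leaving out stray spots cannot move a gene with 1 probe or clean spots. Quantile normalization and normexp could move each gene. Within a line, no paired analysis was possible because each group is 1 array and the labels number no replicates. A fit over both lines, with the line as a block, was not run. Signal over background limits CCL2 and CXCL3 in HCT116, and CCL20 and CX3CL1 in both lines.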
